A study of Mus musculus with 60 samples.

Results

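The genes described here are 35 mouse genes that make ribosomes: factors of ribosome biogenesis and of RNA polymerase I (Pol I). They were taken by name from a list, and they are 35 of 19355 genes in a table of cultured hepatocytes and 35 of 17473 genes in a table of regenerating liver. A ribosome is built in the nucleolus. Pol I makes the long precursor of most ribosomal RNA there, small nucleolar ribonucleoproteins (snoRNPs) guide the methylation and pseudouridylation of that precursor, and large assemblies cleave and fold it around the ribosomal proteins into the small (40S) and the large (60S) subunit. Cells that grow and divide need many ribosomes, and resting hepatocytes, which enter the cell cycle after part of the liver is removed, are a classical setting in which the nucleolus enlarges.

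RNA was sequenced from mice of 8 to 10 weeks. The labels give the strain of each sample as C57BL/6 and its genotype as WT, and the methods of the study name C57BL/6J. The cell table holds 11 groups of 3 samples. They are freshly isolated hepatocytes, IL6-iHPCs-D3 (P0) and IL6-iHPCs-D14 (P0), and 4 passaged lines. The D3 and D14 groups are hepatocytes kept for 3 or 14 days in a medium with EGF, HGF, dexamethasone and the cytokine IL6. The passaged lines are such cells, which the study describes as proliferating and progenitor-like. The lines are mouse-1 at passage 10 (P10) and passage 35 (P35), mouse-2 at P10, and clone-1 at passage 20 (P20), which was grown from a single hepatocyte. P10 and P35 of mouse-1 are counted as separate lines although they share the mouse and are not independent. Means over the lines therefore weigh mouse-1 more than the others. The study describes its single-cell clones as grown from hepatocytes marked with tdTomato by Albumin-Cre, a genotype that the labels of clone-1 do not give. Each line was also sampled as IL6-iMHs, the cells kept for 7 days in a maturation medium with dexamethasone and oncostatin M and without IL6, EGF or HGF. The liver table holds normal liver and liver taken 6 h, 24 h, 3 days, 7 days and 14 days after removal of 2/3 of the liver (partial hepatectomy, PHX), with 3 samples each. The cell samples of a group are technical repeats, so p-values measure only the spread between them. Whether the liver samples of a group are separate animals is not stated in the labels.

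Libraries held 49.3 to 88.8 M (mega) reads on genes in the cell table (median 60.8) and 52.0 to 79.2 M in the liver table (median 57.4). 10 hepatocyte markers summed to 77000 to 83200 FPKM in hepatocytes, 60300 to 81700 in IL6-iMHs and 953 to 1110 at D3. FPKM is a count of fragments divided by transcript length and library size. The 6 markers of bile duct cells summed to 3.84 to 3.94 FPKM in hepatocytes and 2700 to 11000 FPKM in passaged IL6-iHPCs. Markers of red blood cells summed to 107 to 124 FPKM in hepatocytes and to at most 1.03 FPKM in every cultured sample. One set of libraries went against its labels. 4 Y-linked genes had 6575 to 9095 reads in clone-1 as IL6-iHPCs and 0 as IL6-iMHs, although both carry the name of one clone. Results over the 4 lines are therefore also given without clone-1. The same genes had 994 to 1550 reads in hepatocytes, 13066 to 18444 at D3 and 0 to 2 in the IL6-iHPCs of mouse-1 and mouse-2. In comparisons of these 2 mice with hepatocytes, a difference between animals therefore cannot be told apart from one of culture. Hepatocytes and D3 also differed in these reads, and the part of this in the results was not tested.

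The letters CACGTG, an E-box that the growth regulator Myc binds with its partner Max, were searched in the 300 bases around each gene start (250 before it and 50 after) in RefSeq promoter windows of GRCm38.p6. The letters read the same on both strands, and no other motif was searched. Windows were given for 30 of the 35 genes. The letters stood in 9 of these 30 genes, or in 24.3% of their 37 windows, against 7.15% of all 32851 windows. In the 250 bases before the start alone they stood in 3 of the 37 windows (8.11%), against 6.02% of all windows, so most of the matches lay just after the start. The 98 other ribosome biogenesis factors of a wider list held them in 18.3% of 93 windows and the ribosomal proteins in 11.8% of 68 windows. A match is a description and not a binding site. The windows of 30 bases shown here, with the E-box in capitals, belong to members that the results below turn on. Mybbp1a and Wdr43 were called higher at D3, and Nop2 and Utp20 at P35, as deposited and under both adjustments used below. Rrn3 is the one member whose window held the letters at 2 places.
Mybbp1a, chr11:72441347-72441376, plus strand, 40 bases after the start: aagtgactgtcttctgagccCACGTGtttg
Wdr43, chr17:71616220-71616249, plus strand, 17 bases after the start: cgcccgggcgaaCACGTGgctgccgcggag
Nop2, chr6:125131811-125131840, plus strand, 60 bases before the start: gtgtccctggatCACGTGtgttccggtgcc
Utp20, chr10:88826765-88826794, minus strand, 37 bases after the start: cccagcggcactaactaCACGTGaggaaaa
Rrn3, chr16:13780472-13780501, plus strand, 215 bases before the start: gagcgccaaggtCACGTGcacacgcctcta
Rrn3, chr16:13780639-13780668, plus strand, 48 bases before the start: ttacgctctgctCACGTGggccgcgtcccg
The other genes with a match were Ltv1, Pes1, Nle1 and Utp18.

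The 35 genes fall into 5 roles. 7 genes belong to the box C/D snoRNPs and the nucleolar scaffold: Nop56, Nop58 and the methyltransferase Fbl of the snoRNP core, Rrp9 of the U3 particle, Nolc1, a snoRNP chaperone, and the abundant nucleolar proteins Ncl (nucleolin) and Npm1 (nucleophosmin). 4 genes form the box H/ACA snoRNP: Dkc1, the pseudouridine synthase, with Nhp2, Nop10 and Gar1. 7 genes encode Pol I or its factors: the subunits Polr1a, Polr1b, Polr1c and Polr1e, the initiation factor Rrn3, the activator Ubtf and the nucleolar protein Mybbp1a. 8 genes act in the small subunit processome and 40S maturation (Wdr43, Utp18, Utp20, Rrp12, Nop14, Noc4l, Ltv1 and Bysl). 9 genes act in 60S assembly, among them Bop1, Pes1 and Wdr12, which form a complex, the RNA methyltransferase Nop2, and the nucleolar GTPase Gnl3, with Wdr74, Rrs1, Nop16 and Nle1. All 35 genes passed the filter on low values in both tables, and the lowest count of any of them in a sample was 148 reads (Gar1, in liver).

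Levels were far apart within the group. In the cell table the mean level over samples ran from 2.99 FPKM for Polr1e to 165 FPKM for Npm1, with a median of 20.2 FPKM, and in liver from 1.77 FPKM (Polr1e) to 73.3 FPKM (Npm1), with a median of 8.95 FPKM. FPKM is a scale per length, but changes between these libraries differed with transcript length, as given below. Levels of genes of unlike length can therefore be set side by side only roughly. Npm1 has processed pseudogenes whose reads could have been counted with it, and its level is uncertain to that extent. The highest mean level of the other roles in cells was that of Mybbp1a at 57.2 FPKM, Nhp2 at 52.5, Pes1 at 31.8 and Nop14 at 17.4. In liver it was that of Nop10 at 42.3 FPKM, Gnl3 at 17.0, Ubtf at 15.2 and Ltv1 at 8.89. Of the 11 cell groups, the IL6-iHPCs of mouse-1 at P35 had the highest mean of 29 members, and D3 that of the other 6. The lowest mean lay in hepatocytes for 16 members and in the IL6-iMHs of mouse-1 (P10) for 10. These ranks are of deposited values, without the share of all genes beside them. The median log2 change of all genes tested against hepatocytes was also highest in these IL6-iHPCs at P35 (1.16) and at D3 (1.14).

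Fold changes are differences on the log2(FPKM + 1) scale from limma, with p-values adjusted by Benjamini-Hochberg over the 12328 genes tested in cells or the 11114 in liver, and are followed by their standard error (SE). A gene is called higher or lower when it differed at least 2-fold with an adjusted p under 0.05. In cells the deposited values of most genes moved together. Against hepatocytes, the median of all genes lay at 1.14 at D3, 1.00 at D14, 0.93 in the passaged lines and 0.46 in IL6-iMHs. It lay at -0.40 from IL6-iHPCs to IL6-iMHs and at 0.36 from P10 to P35. Scaling each library by the median of its ratios to the other libraries brought these medians to within 0.08 of 0. The shift was larger for long transcripts. With all genes split by length into 4 equal bins, the median change at D3 was 0.03 in the bin of the shortest transcripts and 2.08 in that of the longest. Length here is the one by which the deposited values were divided, recovered from the reads. The bins held 10, 13, 8 and 4 members from short to long, and Spearman's rho between change and length was 0.43 over the members and 0.49 over all genes. Each count of members is therefore given as deposited, after that scaling, and after an adjustment that removes the trend with transcript length. Some members are named below as called under all of these settings. The share of all genes that passed all of them together is not given, so the number named is not a result.

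**Figure D1:**
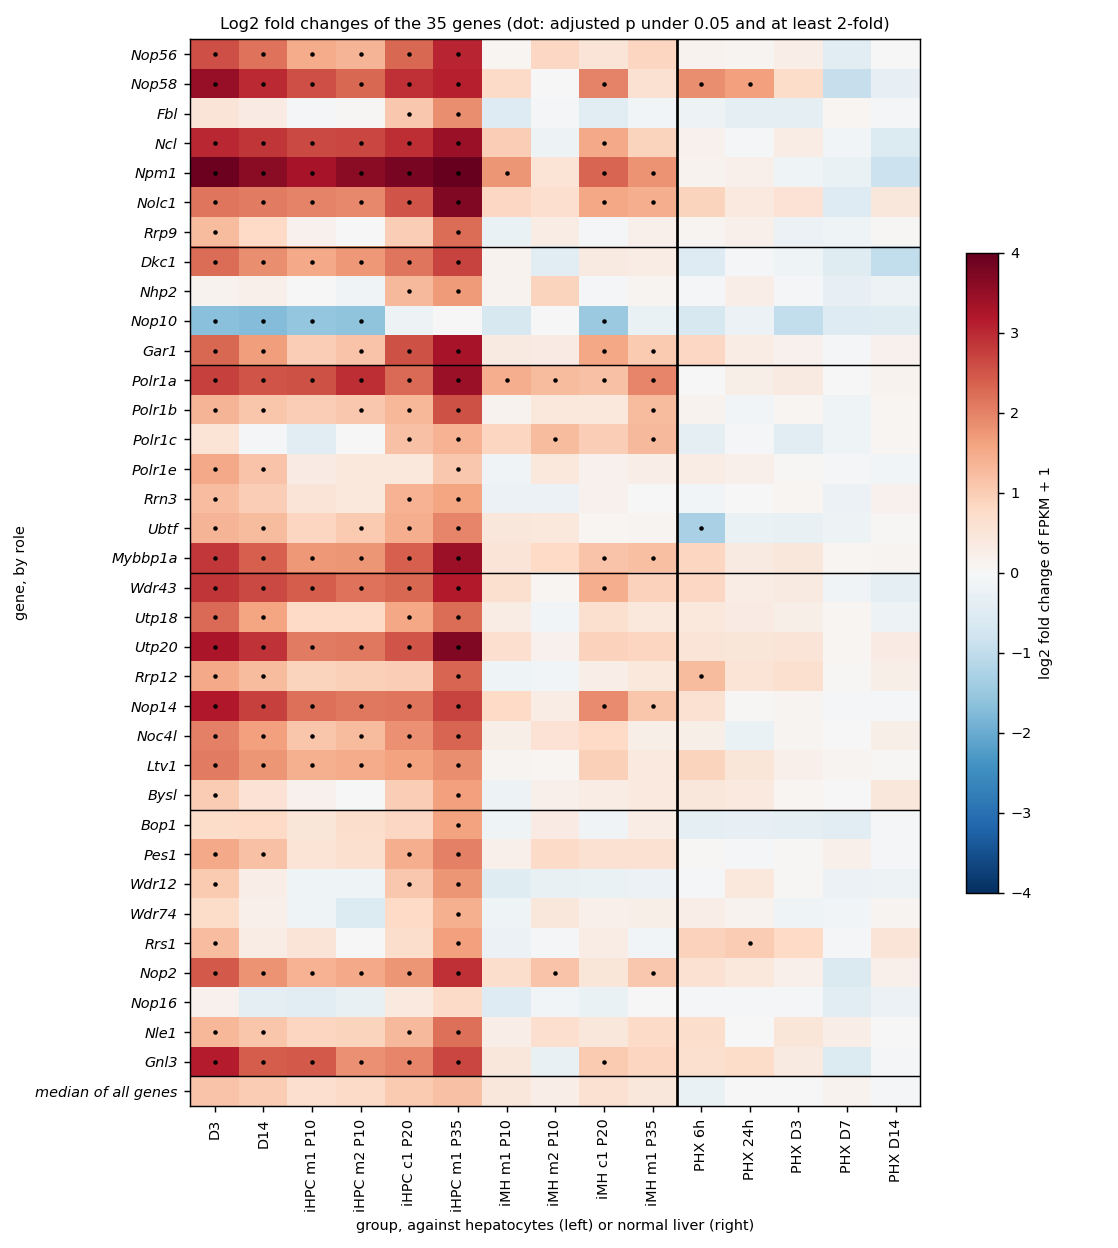
Log2 fold changes of the 35 genes (rows, grouped by role, with the median of all genes tested as the last row) at D3, at D14, in 4 lines of IL6-iHPCs and 4 lines of IL6-iMHs against hepatocytes, and in liver 6 h to 14 days after PHX against normal liver (columns; m1 is mouse-1, m2 is mouse-2 and c1 is clone-1). Color gives the change, a dot marks a call, and the column of P35 IL6-iHPCs is the one with the most calls, 33 of 35.

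The first question was what happened to these genes when hepatocytes entered culture with IL6. At D3 most of them were higher than in hepatocytes, and the largest differences were in the nucleolar scaffold and the small subunit processome. As deposited, 28 of the 35 were called higher, against 53.9% of all genes tested, and 1 lower, against 12.1%. The median of the members was 1.53, and 26 of them lay above the median of all genes. After median-of-ratios scaling 10 were called higher (25.8% of all genes) and 5 lower (28.5%), and 19 lay above 0 and 16 below. After removal of the length trend 14 were called higher (20.6%) and 1 lower (23.4%). The count after median-of-ratios scaling thus lay near the share of all genes, and the direction of many single members depended on the scaling.

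7 members were called higher at D3 under all 3 settings: Npm1, Nop56 and Nop58 of the box C/D group, Nop14 and Wdr43 of the small subunit processome, Mybbp1a and Gnl3. Npm1 stood at 17.4, 20.2 and 17.0 FPKM in the hepatocyte samples and at 281, 326 and 271 FPKM at D3. The groups were far from overlapping, and the difference was the largest of any member, 3.93 on the log2 scale (SE 0.13, adjusted p = 5.7e-22 in limma). Nop14, which with Noc4l helps build the 40S precursor, stood at 3.58, 3.73 and 3.03 FPKM in hepatocytes and at 40.9, 39.6 and 38.1 FPKM at D3 (log2 fold change 3.19, SE 0.07, adjusted p = 8.7e-27 in limma). Mybbp1a went from 13.9, 14.8 and 12.3 FPKM to 106, 100 and 104 FPKM, also with no overlap (2.84, SE 0.06, adjusted p = 2.5e-26). Nop58 came to 3.49 as deposited and to 2.71 once the length trend was removed. Utp20, whose transcript of 8831 bases is the longest of the members, came to 3.27 and 0.77 and was no longer called.

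Pes1, of the 60S group, stood at 15.2, 15.1 and 16.4 FPKM in hepatocytes and at 47.1, 44.9 and 45.2 FPKM at D3. Its difference was 1.5 (SE 0.05, adjusted p = 3.2e-21 in limma) as deposited and -0.07 after median-of-ratios scaling, so its direction turned with the scaling. By role, 8 of 8 genes of the small subunit processome were called higher as deposited, 6 of 7 of the box C/D group, 6 of 7 of Pol I and its factors, 6 of 9 of 60S assembly and 2 of 4 of box H/ACA. The medians of these roles after median-of-ratios scaling were 0.72, 1.02, -0.06, -0.32 and -0.29, so that the first 2 lay above the median of all genes and the others near or below it.

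The box H/ACA proteins went apart. Dkc1 and Gar1 were called higher at D3, by 2.24 and 2.31. Nhp2 stood at 37.9, 34.2 and 36.8 FPKM in hepatocytes and at 38.9, 44.9 and 36.3 FPKM at D3, and the groups overlapped (0.13, SE 0.09, adjusted p = 0.17 in limma). Nop10, the smallest protein of the particle, was the one member called lower. It stood at 50.2, 46.2 and 56.8 FPKM in hepatocytes and at 13.4, 22.3 and 12.1 FPKM at D3, with no overlap. The change was -1.67 as deposited (SE 0.16, adjusted p = 5.2e-11 in limma), -3.24 after median-of-ratios scaling and -1.16 after removal of the length trend. The remaining members that were not called as deposited were Fbl (0.52), Polr1c (0.55), Bop1 and Wdr74 (both 0.72) and Nop16 (0.16).

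At D14 the nucleolar scaffold and the small subunit processome again held the largest differences from the same hepatocyte samples. 23 members were called higher than in hepatocytes (against 50.0% of all genes) and 1 lower (12.9%), with a median of 1.28. After median-of-ratios scaling the counts were 9 higher (25.7%) and 8 lower (28.2%), and after removal of the length trend 8 (19.9%) and 1 (21.9%). The 9 called higher after median-of-ratios scaling lay near the share of all genes. Under that scaling 19 members lay above 0 and 16 below, with a median of 0.09. Npm1, Nop58, Gnl3, Nop14 and Wdr43 were called higher under all 3 settings, and Nop10 lower. Npm1 stood at 224, 230 and 246 FPKM at D14 (3.61, SE 0.13, adjusted p = 5.5e-21 in limma) and Nop10 at 14.6, 15.1 and 14.0 FPKM (-1.74, SE 0.16, adjusted p = 2.1e-11), both apart from every hepatocyte sample.

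Set directly against D3, D14 had 0 of the 35 members called in either direction in limma, against 5.12% of all genes called higher and 5.05% lower, and 0 in voom. At an unadjusted p under 0.05, 0 were higher and 29 lower (24.8% and 48.4% of all genes). The median of the members was -0.37 and that of all genes -0.16. In 30 members all D14 samples lay below all D3 samples, as they did in 49.3% of all genes. Rrs1, which brings the 5S ribosomal RNA into the 60S precursor, had the lowest value. It stood at 35, 36.0 and 34.7 FPKM at D3 and at 17.6, 18.1 and 17.7 FPKM at D14 (-0.95, SE 0.05, adjusted p = 1.2e-15 in limma). Bop1 was at the other end, with 30.4, 26.7 and 30.4 FPKM against 32.0, 32.0 and 29.5 FPKM, which overlapped (0.09, SE 0.08, adjusted p = 0.31).

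**Figure D2:**
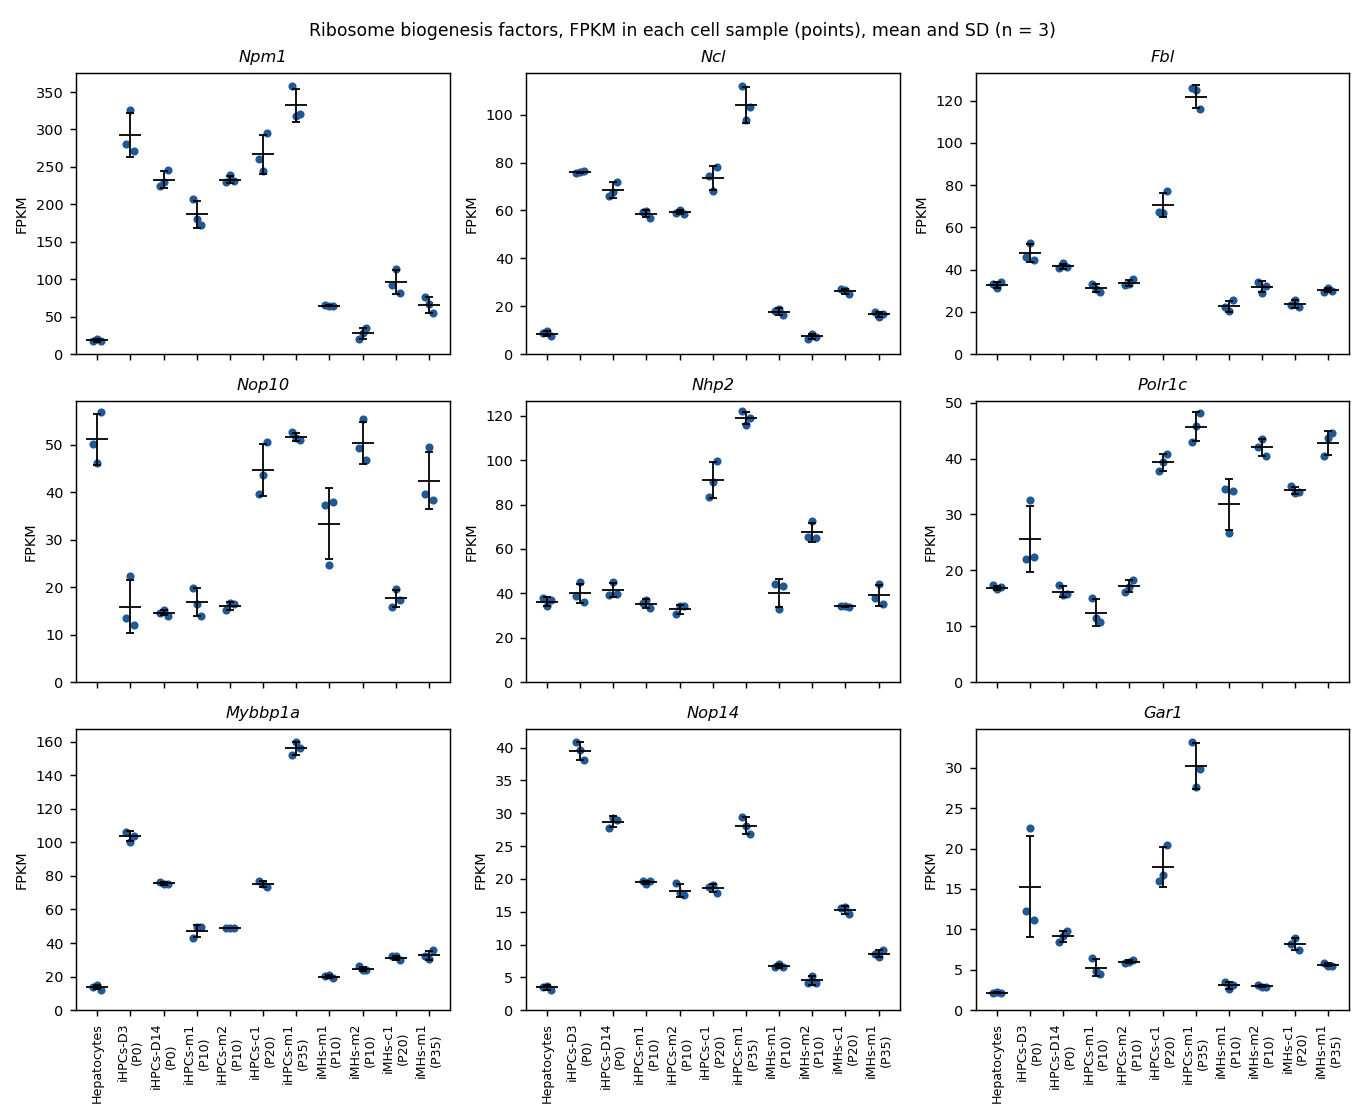
FPKM of 9 members in the 11 cell groups (points are samples, bars the mean with its SD, n = 3). Npm1 and Ncl were lowest in hepatocytes and IL6-iMHs, Nop10 was lowest at D3, D14 and P10 and in the clone-1 IL6-iMHs, and the samples of Polr1c overlapped between IL6-iMHs and P35 IL6-iHPCs.

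In passaged IL6-iHPCs, as the mean of the 4 lines, most members stood above hepatocytes as deposited. 22 members were called higher than in hepatocytes (48.1% of all genes) and 0 lower by limma (11.3%). At an unadjusted p under 0.05, 1 was lower (20.7% of all genes), and voom gave 12 higher and 2 lower. The median was 1.34. After median-of-ratios scaling 9 were higher (23.3%) and 2 lower (25.6%), and after removal of the length trend 13 (18.7%) and 0 (19.8%). The 9 called higher after median-of-ratios scaling lay near the share of all genes. Under that scaling 21 members lay above 0 and 14 below, with a median of 0.17. Without clone-1, the count was 22 higher and 1 lower. Npm1 ran from 172 to 358 FPKM over the 12 samples, with a median of 242, above every hepatocyte sample (3.71, SE 0.11, adjusted p = 6.2e-24 in limma). Nop10 ran from 14.0 to 52.6 FPKM with a median of 29.8, which overlapped with hepatocytes (-0.83, SE 0.13, adjusted p = 4.3e-07).

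8 members were called higher in passaged IL6-iHPCs under all 3 settings, namely Npm1, Ncl, Nolc1, Nop58, Nop14, Wdr43, Polr1a and Mybbp1a. Ncl, a major RNA-binding protein of the nucleolus, ran from 56.9 to 112 FPKM in these 12 samples and stood at 8.81, 9.48 and 7.46 FPKM in hepatocytes (2.93, SE 0.06, adjusted p = 7.0e-27 in limma). Line by line, the number called higher was 33 in mouse-1 at P35, 26 in clone-1, 18 in mouse-2 and 15 in mouse-1 at P10, against 54.3%, 51.5%, 42.8% and 40.0% of all genes. 15 members were higher in all 4 lines (31.4% of all genes). All 4 comparisons share the same hepatocyte samples, and mouse-1 enters both at P10 and at P35. The same 15 were higher in the 3 lines without clone-1 (33.1%), which come from mouse-1 and mouse-2 only. After median-of-ratios scaling 6 were higher in all 4 lines (13.2%) and 7 without clone-1 (15.2%). The 15 include Npm1, Ncl, Nolc1, Nop56 and Nop58 of the box C/D group, Dkc1, Polr1a and Mybbp1a, and 5 genes of the small subunit processome (Wdr43, Utp20, Nop14, Noc4l and Ltv1), but only Nop2 and Gnl3 of the 9 genes of 60S assembly. 2 members were called higher in none of the lines.

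Setting IL6-iMHs against IL6-iHPCs line for line asks what maturation does. Most members were lower in IL6-iMHs. 21 of 35 were called lower (21.4% of all genes) and 0 higher (6.68%) by limma. At an unadjusted p under 0.05, 2 were higher (25.4% of all genes), and voom called 1 higher. The median was -1.05, against -0.40 over all genes, and only 5 members lay above that median. After median-of-ratios scaling 7 were lower (8.56%) and 1 higher (12.7%), with 29 members below 0, and after removal of the length trend 9 were lower (6.34%) and 0 higher (9.48%), with 32 below 0. The direction of the mean over the lines thus held for most members under each scaling. Without clone-1 the count was 17 lower and 0 higher.

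Ncl and Npm1 were among the 6 members called lower under all 3 settings, beside Dkc1, Gnl3, Nop58 and Wdr43. Ncl ran from 56.9 to 112 FPKM in IL6-iHPCs (median 64.3) and from 6.32 to 27.1 FPKM in IL6-iMHs (median 17.1), with no overlap. It fell by 2.14 on the log2 scale, the largest fall (SE 0.04, adjusted p = 5.3e-28 in limma). Npm1 fell from a median of 242 FPKM to one of 65.0 FPKM, with all 12 IL6-iMH samples between 20.5 and 113 (-2.09, SE 0.07, adjusted p = 1.7e-22). Dkc1 ran from 8.94 to 23.1 FPKM in IL6-iHPCs and from 1.35 to 3.74 in IL6-iMHs (-1.93, SE 0.04, adjusted p = 2.3e-27), a range that takes in the hepatocyte samples at 2.90, 2.58 and 2.20 FPKM. Of the role leaders, Mybbp1a ran from 42.8 to 160 FPKM before and from 18.9 to 35.8 FPKM after maturation, and Nop14 from 17.5 to 29.5 and from 4.14 to 15.7 FPKM. Nhp2 (30.6 to 122, then 33 to 72.4 FPKM) and Pes1 (22.6 to 66.7, then 17.1 to 28.5 FPKM) overlapped.

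By role, 6 of 7 box C/D genes, 7 of 8 of the small subunit processome, 4 of 7 of Pol I, 2 of 4 of box H/ACA and 2 of 9 of 60S assembly were called lower. The 2 of 60S assembly were Nop2 and Gnl3. Polr1c and Nop10 were the 2 members above 0. Polr1c is a subunit that Pol I shares with RNA polymerase III. It ran from 10.7 to 48.2 FPKM in IL6-iHPCs (median 28.0) and from 26.6 to 44.5 FPKM in IL6-iMHs (median 37.7), which overlapped. Its difference of 0.57 (SE 0.06, adjusted p = 1.0e-10 in limma) was the highest of the members and past 2-fold after median-of-ratios scaling (1.09). Nop10 differed by 0.24 (SE 0.08, adjusted p = 0.007) as deposited, 0.76 after median-of-ratios scaling and -0.11 after removal of the length trend. Line by line, 31 members were lower in mouse-1 at P35, 17 in clone-1, 12 in mouse-2 and 14 in mouse-1 at P10, against 35.1%, 17.7%, 28.6% and 15.4% of all genes. 3 members were called higher in mouse-2 (Nop10 by 1.59, Nhp2 by 1.01 and Polr1c by 1.25, against 11.2% of all genes) and 1 in mouse-1 at P10 (Polr1c by 1.3, against 9.59%). In mouse-2 after median-of-ratios scaling, 16 members lay above 0 and 19 below, with a median of -0.10, so the members were split in that line. Dkc1, Ncl, Npm1, Polr1a and Utp20 were lower in all 4 lines (3.33% of all genes), with mouse-1 counted at P10 and at P35. In the 3 lines without clone-1, from mouse-1 and mouse-2 only, 12 members were lower (8.94%). After median-of-ratios scaling these counts were 2 (0.771%) and 7 (2.87%).

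**Figure D3:**
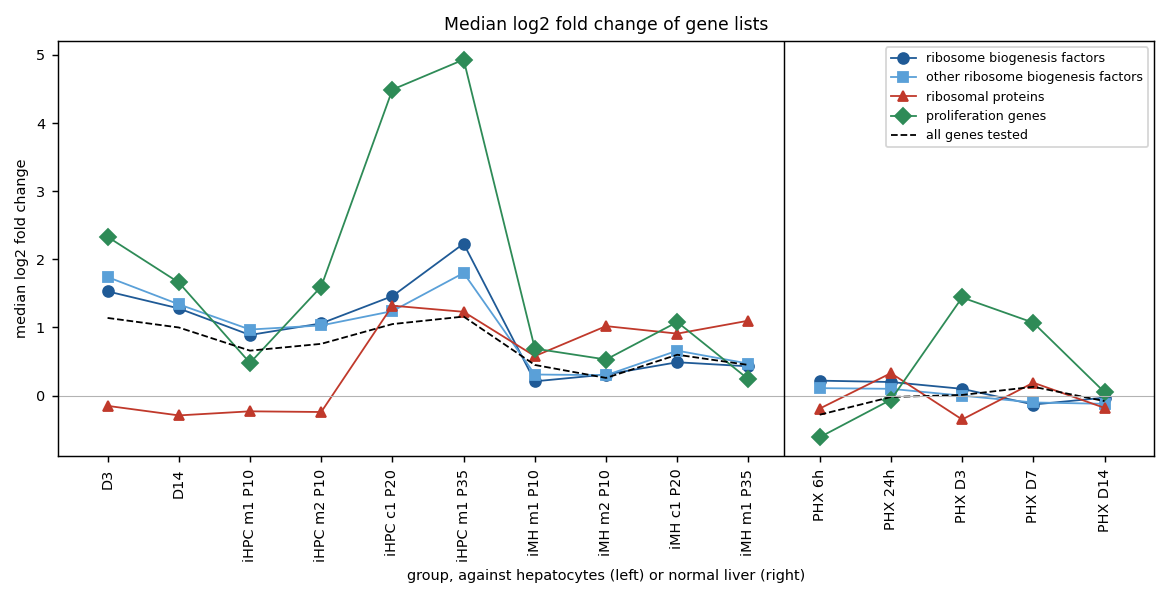
Median log2 fold change of the 35 members, of 98 other ribosome biogenesis factors, of 79 ribosomal proteins, of 25 proliferation genes and of all genes tested (dashed) over the comparisons with hepatocytes and with normal liver. The ribosomal proteins lay below the members at D3 and D14 and above them in IL6-iMHs, and 6 h after PHX the members lay above all other lists shown.

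After maturation few members were called against hepatocytes. As deposited, 5 of 35 were called higher in IL6-iMHs than in hepatocytes (24.8% of all genes) and 0 lower by limma (7.79%). At an unadjusted p under 0.05, 4 were lower (19.8% of all genes), and voom gave 0 higher and 4 lower. The median was 0.46, the same as that of all genes. After median-of-ratios scaling 0 were higher (13.5%) and 4 lower (16.8%), with a median of -0.26, and after removal of the length trend 1 was higher (12%) and 0 lower (11.6%), with a median of -0.02. The direction of the group thus turned with the scaling. Without clone-1, 3 were higher and 0 lower, and without replicate 3 of the hepatocytes also 3 were higher.

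The 5 members were Npm1, Polr1a, Nolc1, Polr1c and Nop14. Npm1 ran from 20.5 to 113 FPKM in IL6-iMHs, and its lowest sample, in mouse-2, was next to the highest hepatocyte sample at 20.2 FPKM (1.61, SE 0.11, adjusted p = 1.3e-14 in limma). Polr1a, the largest Pol I subunit, was called higher in each of the 4 lines. It stood at 2.27, 2.90 and 2.13 FPKM in hepatocytes and ran from 6.31 to 13.1 FPKM in IL6-iMHs (1.45, SE 0.08, adjusted p = 6.2e-16, and 0.86 after median-of-ratios scaling). Nop10 was again at the lower end, from 15.9 to 55.4 FPKM with a median of 38.2, which overlapped with hepatocytes (-0.60, SE 0.13, adjusted p = 7.5e-05 in limma). Line by line, 9 members were higher in mouse-1 at P35, 10 in clone-1, 3 in mouse-2 and 2 in mouse-1 at P10, against 27.1%, 35%, 17.6% and 25.4% of all genes.

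Most of the members were higher at P35 than at P10 in mouse-1, the only mouse sampled at both passages. In the IL6-iHPCs of mouse-1, 26 of 35 were called higher at P35 than at P10 (24.8% of all genes) and 0 lower by limma (8.94%). At an unadjusted p under 0.05, 0 were lower (26.4% of all genes), and 0 were called lower in voom. The median was 1.41 against 0.36 over all genes, and 34 members lay above the latter. After median-of-ratios scaling and after removal of the length trend 14 were called higher (12.3% and 12.5%) and 0 lower (13.5% and 14.7%), with 33 members above 0 and medians of 0.93 and 0.77. In 34 members all P35 samples lay above all P10 samples, against 58.2% of all genes. All 4 box H/ACA genes and 8 of the 9 genes of 60S assembly were called, beside 5 of 8 of the small subunit processome, 5 of 7 of Pol I and 4 of 7 of box C/D. The 25 proliferation genes differed as well. Their median log2(FPKM + 1) was 1.1, 0.9 and 0.98 in the P10 samples and 6.03, 5.91 and 5.93 at P35. In hepatocytes it was 0.46, 0.52 and 0.41. Passage and proliferation thus differ together between these groups, and the part of each in the result was not tested.

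Gar1, a box H/ACA protein, rose most. It stood at 6.44, 4.85 and 4.44 FPKM at P10 and at 33.2, 27.6 and 29.8 FPKM at P35 (2.33, SE 0.15, adjusted p = 1.1e-14 in limma). Rrp9 of the U3 particle rose from 9.29, 8.96 and 7.22 FPKM to 37.2, 38.9 and 38.2 FPKM (2.05, SE 0.09, adjusted p = 4.8e-18), and Fbl from 33.4, 31.0 and 29.4 FPKM to 126, 125 and 116 FPKM (1.93, SE 0.08, adjusted p = 1.8e-19). None of these groups overlapped, and all 3 genes were called under the 3 settings. Nop10 stood at 19.9, 16.5 and 14.0 FPKM at P10 and 52.6, 51.4 and 50.9 FPKM at P35, as deposited close to its level in hepatocytes. After median-of-ratios scaling it was called lower than in hepatocytes in all 4 lines of IL6-iHPCs, P35 among them. The others called under all 3 settings were Mybbp1a, Nolc1, Nop2, Nop56, Polr1b, Polr1c, Utp20 and Wdr12.

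Gnl3 (nucleostemin) moved least from P10 to P35. It stood at 43.5, 34.6 and 36.6 FPKM at P10 and at 48.0, 43.4 and 43.5 FPKM at P35, and the groups overlapped (0.23, SE 0.10, adjusted p = 0.026 in limma). Its sign turned under each of 4 scalings, to -0.26 after median-of-ratios scaling. The other members that were not called were Npm1 (0.83), Ncl (0.82), Nop58 (0.54), Polr1a (0.92), Polr1e (0.77), Wdr43 (0.73), Nop14 (0.50) and Ltv1 (0.42). All 9 were higher at D3 than in hepatocytes as deposited, but so were 34 of the 35 members, so this does not set them apart. Over the 35 members, the change at D3 and the change from P10 to P35, which share no samples, had a Pearson's r of -0.44 and a Spearman's rho of -0.45, and r was -0.37 and rho -0.22 without the length trend. Over all 12328 genes r was 0.20 and rho 0.06. These are correlations across genes, which are not independent replicates.

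**Figure D4:**
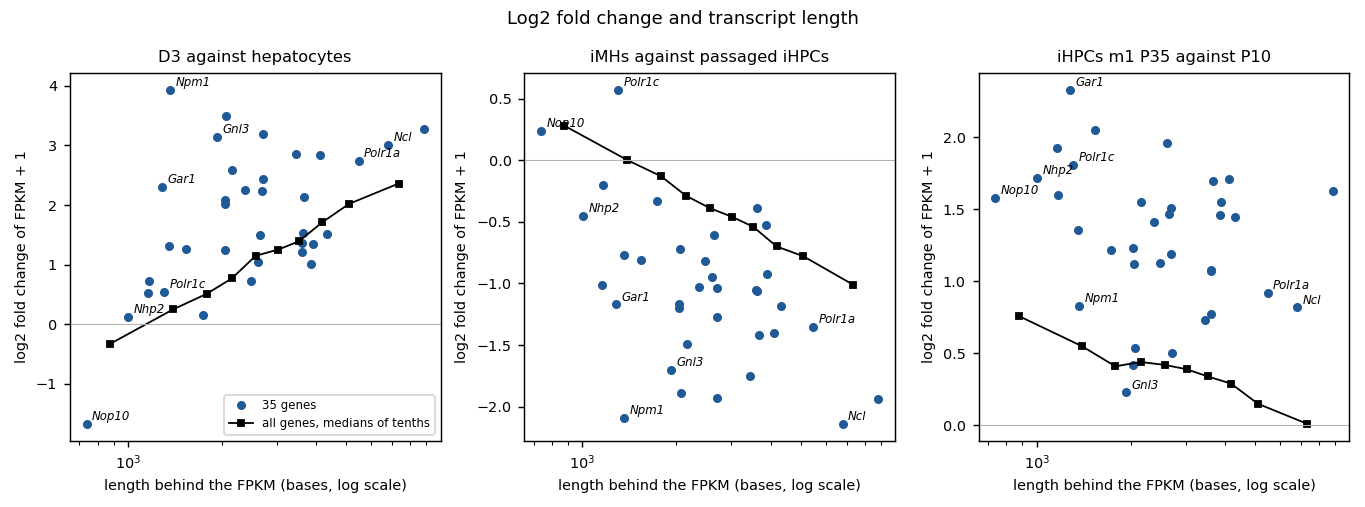
Log2 fold change against the length by which the FPKM of each gene were divided (log axis, bases) at D3 against hepatocytes, in IL6-iMHs against IL6-iHPCs and at P35 against P10 (points are the members, the line joins the medians of 10 equal bins of all genes by length). The line rises with length at D3 and falls with it at maturation and from P10 to P35. Most members lie above it at D3 and from P10 to P35 and below it at maturation.

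As deposited, the change at maturation differed between passages of mouse-1. The difference between the change at P35 and that at P10 was tested as a contrast of its own. It was negative past both thresholds in 18 members (24.1% of all genes) and positive in 0 by limma (9.65%). It was also positive in 0 in voom and at an unadjusted p under 0.05 (24.4% of all genes). The median was -1.01 against -0.36 over all genes. After median-of-ratios scaling 5 were negative past them (12.5% of all genes) and after removal of the length trend 6 (12.4%), with 28 and 31 members below 0. These counts lay near the share of all genes. Gar1, Nhp2, Rrp9 and Wdr12 were called under all 3 settings. Nhp2 had the largest difference. It went from 35.5, 37.2 and 33.5 FPKM to 44.2, 33 and 43.3 FPKM at P10, and from 122, 116 and 119 FPKM to 38.1, 44.0 and 35 FPKM at P35, so that the IL6-iMHs of both passages overlapped (-1.75, SE 0.13, adjusted p = 8.9e-13 in limma). Gnl3 was at the other end, with 43.5, 34.6 and 36.6 FPKM going to 9.11, 8.96 and 8.51 FPKM at P10 and 48.0, 43.4 and 43.5 FPKM to 13.4, 11.1 and 11.3 FPKM at P35 (0.15, SE 0.13, adjusted p = 0.30). The IL6-iHPCs at P35 also held 86.4 to 92.3 FPKM of 8 lymphocyte and neutrophil markers in sum, against 0.123 to 0.18 FPKM in mouse-1 (P10). Nearly all of that was S100a8 (80.9 to 86.9 FPKM) and S100a9 (5.3 to 6.72 FPKM), and the others were under 1 FPKM. The part of this in the result was not tested.

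In liver the question was whether the same genes move when hepatocytes enter the cell cycle in the animal. As deposited, few of them were called, and at 6 h more were called after either adjustment. Fewer cells of a type and less RNA per cell cannot be told apart in whole tissue. At 6 h after PHX 2 members were called higher than in normal liver (4.78% of all genes) and 1 lower (11.5%). The median was 0.22 against -0.28 over all genes, and 30 members lay above the latter. After median-of-ratios scaling 10 were higher (7.67%) and 0 lower (6.29%), and after removal of the length trend 10 were higher (7.02%) and 1 lower (5.77%). 31 members lay above 0 under both, with medians of 0.56 and 0.55. At an unadjusted p under 0.05, 16 were higher and 5 lower as deposited (14.0% and 44.3% of all genes). Voom called 13 higher and 1 lower, and the share of all genes that it called is not given. Without replicate 3 of normal liver, 4 were called higher.

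Nop58, a core protein of the box C/D particle, rose most. It stood at 8.02, 8.24 and 12.4 FPKM in normal liver, 36.8, 27.5 and 47.3 FPKM at 6 h and 27.1, 32.9 and 34.2 FPKM at 24 h. The difference was 1.85 at 6 h (SE 0.22, adjusted p = 1.4e-05 in limma) and 1.64 at 24 h (SE 0.22, adjusted p = 0.00013), with no overlap at either time. It then stood at 13.4, 20.6 and 15.7 FPKM at D3, 4.97, 4.70 and 3.98 FPKM at D7 and 7.22, 9.64 and 5.40 FPKM at D14. At D7 its 3 samples lay below all of normal liver (-0.91, SE 0.22, adjusted p = 0.0064), the lowest value of any member at that time.

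Rrp12, which takes part in export of the 40S precursor, stood at 1.82, 1.44 and 2.28 FPKM in normal liver and at 5.55, 5.01 and 7.12 FPKM at 6 h (1.28, SE 0.16, adjusted p = 2.1e-05 in limma). At 24 h it stood at 3.69, 2.79 and 2.99 FPKM, below each sample of 6 h (-0.72 against 6 h, SE 0.16, adjusted p = 0.0035). Rrs1 stood at 8.31, 8.22 and 11 FPKM in normal liver, 17.3, 18.2 and 18.9 FPKM at 6 h and 20.4, 17.6 and 20.6 FPKM at 24 h. It passed the 2-fold limit at 24 h (1.02, SE 0.19, adjusted p = 0.0013) and fell short of it at 6 h (0.92, SE 0.19, adjusted p = 0.0011). Nop58, Rrp12 and Rrs1 were the 3 members with the highest change at any time.

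Ubtf, the factor that opens ribosomal DNA for Pol I, went the other way. It stood at 21.4, 14.6 and 20.1 FPKM in normal liver and at 6.12, 7.50 and 7.37 FPKM at 6 h, with no overlap (-1.29, SE 0.14, adjusted p = 7.5e-06 in limma). This was -0.95 after median-of-ratios scaling and -1.06 after removal of the length trend. At 24 h it was at 17.3, 13.7 and 15.1 FPKM again, 1.03 above 6 h (SE 0.14, adjusted p = 0.00016), the one member called between the 2 times (against 5.19% of all genes called higher and 1.53% lower). This call was lost after median-of-ratios scaling (0.75), after removal of the length trend (0.80), in voom and without replicate 1 of 6 h or of 24 h. In the other direction 0 were called in limma and 2 in voom. At an unadjusted p under 0.05, 9 members were lower and 5 higher (7.17% and 38.9% of all genes). The median of the members was -0.1 against 0.24 over all genes. After median-of-ratios scaling 29 members lay below 0, with a median of -0.34.

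**Figure D5:**
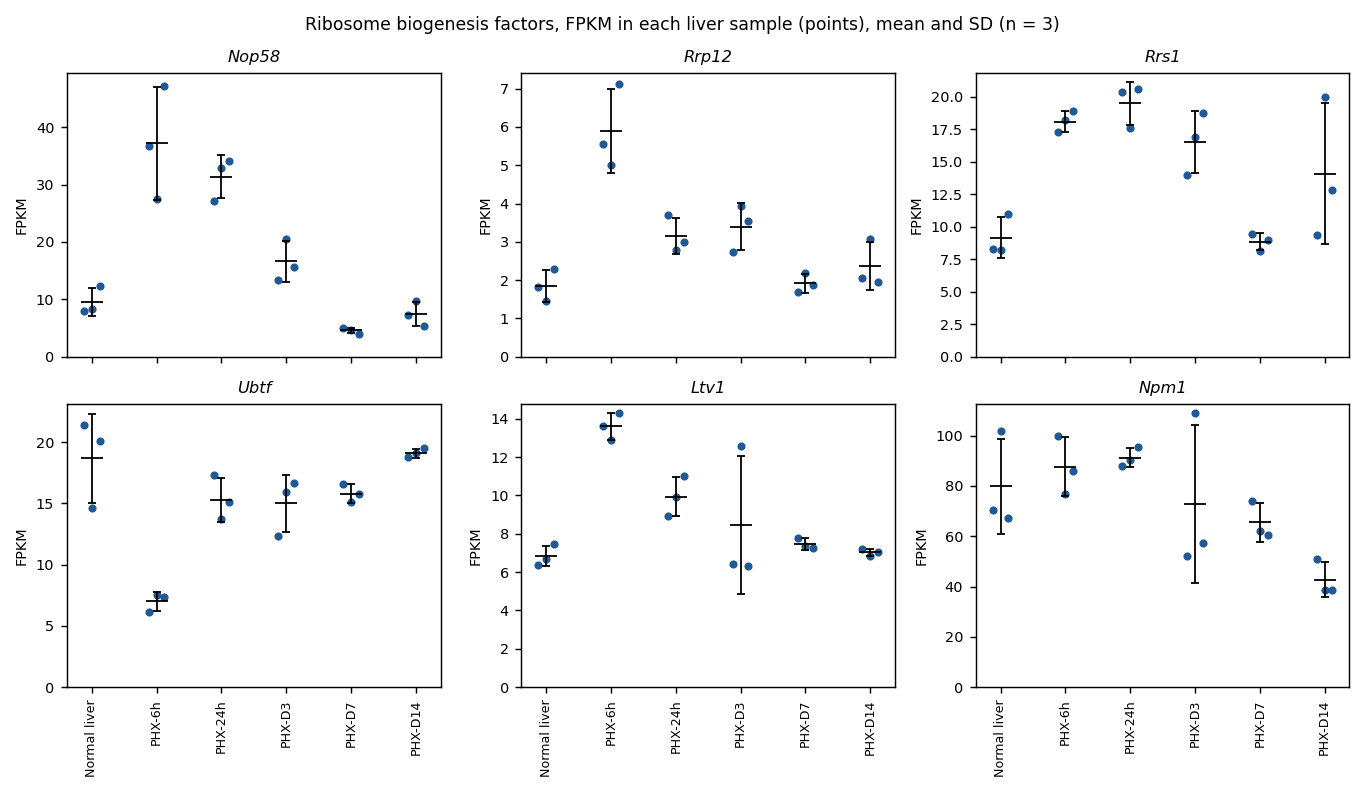
FPKM of 6 members in normal liver and at 5 times after PHX (points are samples, bars the mean with its SD, n = 3). Nop58, Rrp12, Rrs1 and Ltv1 stood highest at 6 or 24 h, Ubtf lowest at 6 h, and the samples of Npm1 overlapped between normal liver and 6 h.

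Ltv1, a factor of 40S maturation, stood at 6.38, 6.70 and 7.44 FPKM in normal liver and 13.6, 12.9 and 14.3 FPKM at 6 h, just under the 2-fold limit (0.90, SE 0.18, adjusted p = 0.00064 in limma). Gnl3 was at 11.8, 14.9 and 15.5 FPKM in normal liver and 19.9, 21.5 and 26.6 FPKM at 6 h (0.65, SE 0.17, adjusted p = 0.0041), without overlap. Both were past 2-fold after median-of-ratios scaling. Npm1, the member with the largest difference in culture, stood at 70.5, 102 and 67.2 FPKM in normal liver and 100, 76.8 and 86.0 FPKM at 6 h, which overlapped (0.15, SE 0.23, adjusted p = 0.60). Nop10 stood at 50.3, 67.6 and 56.6 FPKM in normal liver and, without overlap, at 39.3, 37.9 and 33.9 FPKM at 6 h (-0.63, SE 0.15, adjusted p = 0.0030). Macrophage markers summed to 276 to 409 FPKM in normal liver and 111 to 205 FPKM at 6 h, and lymphocyte and neutrophil markers to 2.59 to 8.73 and 38.7 to 40.7 FPKM. Their part in these results was not tested.

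At 24 h, 2 members were higher, Nop58 and Rrs1 (3.74% of all genes), and 0 lower (4.16%) in limma. Voom also called 0 lower, and 2 were lower at an unadjusted p under 0.05 (23.4% of all genes). The median was 0.20 against -0.02 over all genes. Both calls held after median-of-ratios scaling and removal of the length trend, but 1 was left without replicate 1 or 2 of normal liver or replicate 1 or 3 of 24 h. Fbl had the lowest value, with 30.2, 32.1 and 34.6 FPKM in normal liver and 28.5, 22.3 and 22.4 FPKM at 24 h (-0.40, SE 0.12, adjusted p = 0.021), and its groups did not overlap.

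From D3 after PHX on, 0 members were called in limma, against 3.33% of all genes called higher and 2.49% called lower for D3, 7.81% and 1.03% for D7, and 0.981% and 2.00% for D14. At an unadjusted p under 0.05, 9 were higher and 4 lower at D3 (21.1% and 21.2% of all genes), 0 and 9 at D7 (29.7% and 10.3%), and 3 and 5 at D14 (7.88% and 22.1%). Voom called 0 higher and 1 lower at each of the 3 times, and leaving out single samples gave at most 1 lower at D3 and D7 and at most 2 at D14. At D3, Rrs1 was highest, at 14.0, 16.9 and 18.8 FPKM (0.79, SE 0.19, adjusted p = 0.0083), above all of normal liver. Nop10 was lowest, at 26.3, 36.6 and 23.9 FPKM (-1.0, SE 0.15, adjusted p = 0.00046), just short of the 2-fold limit and with no overlap. The proliferation genes, by contrast, were called higher in 19 of 24 at D3 and in 2 of 24 at 24 h.

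At D7, 27 of the 35 members lay below 0 as deposited and 33 after median-of-ratios scaling, with medians of -0.13 and -0.28. The highest was Nle1, a factor of 60S assembly, at 3.62, 2.89 and 3.17 FPKM against 2.32, 2.42 and 2.93 FPKM in normal liver, which overlapped (0.25, SE 0.19, adjusted p = 0.35 in limma). Macrophage markers summed to 1440 to 2080 FPKM at D7, above all of normal liver, and their part in the result was not tested. At D14, Dkc1 was lowest, at 3.04, 3.11 and 2.04 FPKM against 5.46, 7.16 and 6.22 FPKM (-0.97, SE 0.15, adjusted p = 0.00054 in limma), without overlap. Rrs1 was highest, at 9.38, 20 and 12.8 FPKM, which overlapped with normal liver (0.52, SE 0.19, adjusted p = 0.083). Npm1 stood at 50.8, 38.8 and 38.6 FPKM, below all of normal liver (-0.87, SE 0.23, adjusted p = 0.017).

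How alike the members were can be described by the correlation of each member's group means with the median of the other members. Over the 11 cell groups r was highest for Mybbp1a (0.98), Nolc1 (0.97), Gar1 and Utp20 (both 0.96). It was low for Nhp2 (0.48), Nop16 (0.56) and Wdr74 (0.58), 0.06 for Polr1c and -0.30 for Nop10. Over the 6 liver groups it was highest for Gnl3 (0.94) and Rrs1 (0.93) and lowest for Ubtf (-0.75) and Fbl (-0.74). The points of each table share their libraries, and no test was made.

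Other genes of the pathway were counted from lists of textbook members. All genes were called higher in 53.9% at D3 and 24.8% from P10 to P35, and lower in 21.4% at maturation. Of the 98 other ribosome biogenesis factors, 77 were called higher and 1 lower at D3 (median 1.74), 0 higher and 33 lower at maturation (median -0.85), and 43 higher and 1 lower from P10 to P35 (median 0.89). After median-of-ratios scaling the counts at D3 were 26 higher (25.8% of all genes) and 11 lower (28.5%), so the count called higher lay near the share of all genes. The 79 ribosomal proteins, the products that these factors assemble, did not follow at D3, where 1 was called higher and 9 lower (median -0.15). After median-of-ratios scaling 75 were lower there (28.5% of all genes). After removal of the length trend 8 were higher (20.6%) and 4 lower (23.4%). 73 of the 79 belong to the bin of the shortest transcripts. From P10 to P35, 66 ribosomal proteins were called higher and 0 lower (median 1.54), and 40 after median-of-ratios scaling. Of the RNA polymerases that share Polr1c or work beside Pol I, 4 of 7 subunits of Pol II and 7 of 11 subunits of Pol III were called higher at D3, and 4 and 0 from P10 to P35. Of 10 genes of the Myc network, 6 were higher at D3, where Myc had the highest value. These 3 counts at D3 lay near the share of all genes. After median-of-ratios scaling 1 subunit of Pol II, 1 of Pol III and 3 genes of the Myc network were higher there, against 25.8% of all genes. In liver at 6 h Myc was 1.58 above normal liver (SE 0.57, adjusted p = 0.029 in limma). The 25 proliferation genes were called higher in 23 cases at D3, 24 in passaged IL6-iHPCs and 25 from P10 to P35 (median 4.38), and lower in all 25 at maturation (median -2.25). That mean hides the lines. 25 were lower in clone-1 and in mouse-1 at P35, 10 in mouse-2, and 1 in mouse-1 at P10, where the median was 0.02.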

How the data were processed

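RNA-seq libraries of poly(A) RNA were sequenced as Illumina paired-end reads. The values the authors deposited are taken as FPKM, 1 per gene symbol and sample, with replicates kept apart. The submitters' processing notes name TopHat 1.4.1, Cufflinks 1.3.0 and mm10. FPKM are relative within a library, so abundant transcripts lower all others. Groups came from the labels. Whole reads were recovered from the steps of the values and used for depth and one alternative.

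Genes that reached 1 FPKM in 3 samples of a table were tested on log2(FPKM + 1) with limma 3.58.1 (R 4.3.3), in 1 fit of the 33 cell samples and 1 of the 18 liver samples, with p-values adjusted by Benjamini-Hochberg over all of them. This scale understates the change of low genes. A pseudocount of 1 was added. The alternatives tried were 0.1 as pseudocount, a filter at 5 FPKM or none, other fold limits, quantile normalization, median-of-ratios scaling, voom on recovered reads, leaving out samples, a replicate block and, added after seeing the data, removal of the trend with transcript length by lowess with a span of 0.3. Length was the one by which the deposited values had been divided, obtained from the recovered reads, the FPKM and the library size, or the longest annotated transcript as another alternative. Tests were tried on simulated data.

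The 35 members and all lists were chosen with earlier results of these data known. Per-sample values are given for the member with the highest and the lowest change in each comparison, the 3 with the highest change in liver, and the member of each role with the highest mean FPKM. Other values were chosen after they were seen. The day 7 table lists none of the 35 genes and was not used. Same-numbered samples of different groups did not deviate together (median correlation -0.016 in cells and -0.055 in liver), so numbers were not taken to pair samples. The scripts also used Python 3.11.15, numpy 2.4.6, pandas 2.3.3 and matplotlib 3.10.9. No samples of a group held the same reads within sampling noise.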

Additional observations from a re-analysis of the deposited data

Results flagged for a closer look

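The change at maturation differed between P35 and P10 of mouse-1. By the contrast of both changes in limma with Benjamini-Hochberg adjustment, it was more negative at P35 past both thresholds in 18 of the 35 members, against 24.1% of all genes. After median-of-ratios scaling 5 of the 35 were past them, against 12.5% of all genes, a count near that share.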

How the results depend on the processing

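The cell counts fell mostly with scaling, since the median of all genes moved as deposited, and the cause of that movement was not tested. For voom, quantile normalization and the other fold limits, the share of all genes called is not given here or above. Those counts show only how the number of members called moved with the setting. In the order quantile normalization, median-of-ratios scaling, length trend removed and voom, the members called higher were 12, 10, 14 and 12 at D3, 12, 9, 8 and 9 at D14, 12, 9, 13 and 12 in passaged IL6-iHPCs, and 1, 0, 1 and 0 in IL6-iMHs against hepatocytes. From P10 to P35 the last 3 settings gave 14, 14 and 16, and quantile normalization stayed within 1.5 times. Those called lower at maturation were 10, 7, 9 and 8, and by the difference between P35 and P10 8, 5, 6 and 5. Lower against hepatocytes, median-of-ratios scaling and voom gave 5 each at D3, 8 at D14, 2 in passaged IL6-iHPCs and 4 for IL6-iMHs. With the longest annotated transcript in place of the length behind the values, removal of the trend gave, against hepatocytes, 13 called higher with 2 lower for D3, 8 with 2 for D14, 12 with 1 for passaged IL6-iHPCs, 1 with 1 for IL6-iMHs, 14 higher from P10 to P35, 8 lower at maturation, 5 lower by the difference between passages, 10 higher at 6 h, 1 lower at D7 and 0 higher at 24 h against 6 h. Quantile normalization gave 2 lower at D14 and 1 in passaged IL6-iHPCs. At maturation median-of-ratios scaling and voom gave 1 higher.

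At 6 h the 4 settings gave 8, 10, 10 and 13 higher, and quantile normalization and median-of-ratios scaling 0 lower. Between 24 h and 6 h each gave 0 higher, and 1, 1 and 2 were lower by quantile normalization, median-of-ratios scaling and voom. 1 was lower at D3 after PHX by median-of-ratios scaling and voom, at D7 by all 4, and at D14 by voom. A pseudocount of 0.1 gave 1 lower at each of these 3 times.

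With no fold limit, 2 members were lower at D14, 28 at D14 against D3, 1 in passaged IL6-iHPCs, 33 at maturation (2 higher), 4 in IL6-iMHs against hepatocytes (25 higher) and 32 by the difference between passages. In liver it gave 16 higher and 4 lower at 6 h, 7 and 1 at 24 h, 4 and 3 at D3, 7 lower at D7, 4 lower at D14, and 4 higher and 6 lower at 24 h against 6 h. A limit of 1.5-fold gave 7 lower at D14 against D3, 1 lower in passaged IL6-iHPCs, 12 higher and 1 lower in IL6-iMHs against hepatocytes and 28 by the difference between passages. In liver it gave 12 and 2 at 6 h, 3 and 1 at D3, 1 lower at D7, 2 lower at D14 and 2 lower at 24 h against 6 h.

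Leaving out 1 sample at a time gave 26 to 28 higher at D3, 22 to 24 at D14, 22 to 23 in passaged IL6-iHPCs, 20 to 21 lower at maturation, 3 to 5 higher in IL6-iMHs, 26 from P10 to P35 and 16 to 18 for the difference between passages. In liver it gave 2 to 4 higher at 6 h (4 without replicate 3 of normal liver), 1 to 2 at 24 h and 0 to 1 at 24 h against 6 h. Lower, it gave 0 to 1 at D3 (1 without replicate 1 or 3 of normal liver or replicate 2 of D3), 0 to 1 at D7 (1 without replicate 1 of normal liver) and 0 to 2 at D14 (2 without replicate 1 of D14, 1 without replicate 2 of D14 or replicate 1 of normal liver). Without clone-1, 1 was lower in passaged IL6-iHPCs and 3 were higher in IL6-iMHs. Gnl3 from P10 to P35 reversed to -0.28, -0.26, -0.26 and -0.28 in the 4 settings and -0.27 with the annotated length, and Nle1 at D7 to -0.03 by quantile normalization. The E-box share was 8.11% in the shorter window. The replicate block, for numbers that do not pair the samples, changed no count of members called, with 28 higher at D3 and 2 at 6 h. No filter and a filter at 5 FPKM kept each count within 1.5 times.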
